A study of Mus musculus with 2 samples.

Results

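Chemokines are small secreted proteins that guide the movement of leukocytes through G protein-coupled receptors, and microglia, the resident macrophages of the brain, are one of their sources in brain tissue. The 9 genes described here, of 31053 in the count tables, were taken as a list of named chemokine genes linked to microglia: Ccl2, Ccl3, Ccl4, Ccl6, Ccl7, Ccl9, Ccl12, Cxcl16 and Ccrl2. The list uses names and no threshold on a measured value, and it was drawn up with earlier results of these data known. Ccl3 and Ccl4 encode the related macrophage inflammatory proteins, which attract leukocytes. Ccl6 and Ccl9 encode ligands of Ccr1. Ccl2, Ccl7 and Ccl12 encode ligands of Ccr2, the receptor that draws monocytes into tissue. Cxcl16 encodes a membrane-bound ligand of Cxcr6 that the proteases Adam10 and Adam17 release from the cell surface. Ccrl2 encodes an atypical receptor that does not signal in the usual way, binds the attractant chemerin and presents it to the signalling receptor Cmklr1.

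The data were 2 single-cell RNA libraries of the hippocampus of mice aged 7 months, 1 from Mr1+/+ and 1 from Mr1-/- animals. Mr1 encodes a protein that presents microbial metabolites to mucosal-associated invariant T cells. Neither genotype was treated, the tissue was dissociated with a kit made for primary neurons, and live nucleated cells were sorted by DAPI exclusion and Draq5 staining. The cells are labelled as non-neuronal, and 275 and 167 of those kept were neuron-like by their markers. How many mice went into each library is not stated in the sources used here. With 1 library per genotype there was no replicate check and no test, so every difference below is between 2 libraries, and the 95% intervals cover counting error only. Values are counts of unique molecular identifiers (UMIs, tags that mark single captured RNA molecules) or CPM (UMIs scaled to a total of 1000000 over the named cells of a library). The library kit reads the 5′ end of each RNA, so UMI levels are compared between cells and not between genes.

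The libraries held 6410 and 5347 cell barcodes with 23244575 and 18349132 UMIs, and medians of 3160 and 2935 UMIs per barcode. After filtering, 5992 Mr1+/+ and 5107 Mr1-/- cells were kept, 39 kept barcodes occurred in both libraries, and 1 of these was among the microglia. Mr1 itself had 130 UMIs in Mr1+/+ and 2 in Mr1-/- cells. Cells fell into 23 clusters made without any chemokine gene, and 10 classes could be named from marker genes. The microglia-like class held 639 Mr1+/+ cells (10.7% of the library) and 746 Mr1-/- cells (14.6%), with medians of 4306 and 3814 UMIs. All 12 microglia markers, among them P2ry12, Tmem119 and Csf1r, were detected there in each library. The 8 T or NK cell markers were at 0 UMIs in the class in both libraries. Of 8 monocyte or dendritic cell markers 6 and 4 were detected, with 52 and 49 UMIs in all, and Ly6c2 and Chil3 were at 0 in both libraries. Cells of the class with 3 or more border macrophage markers numbered 15 and 13, and the 9 markers together had 1006 and 963 UMIs. Cells with 3 or more of 8 oligodendrocyte markers numbered 41 and 21.

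Of the 9 genes, 8 lie on chromosome 11 of the mouse build mm10 (GENCODE M21 annotation), and Ccrl2 lies at chr9:111054486-111057519 on the minus strand. Cxcl16 is apart from the others at chr11:70453983-70459984. The Ccr2 ligand genes form one group on the plus strand, with Ccl2 at chr11:82035571-82037453, Ccl7 8258 bases further on at chr11:82045712-82047525 and Ccl12 at chr11:82101845-82103400. A second group begins 1469518 bases beyond Ccl12. It holds Ccl9 at chr11:83572919-83578636 and Ccl6 at chr11:83587882-83593087, both on the minus strand, then Ccl3 at chr11:83647844-83649355 on the minus strand and Ccl4 at chr11:83662584-83664683 on the plus strand. Ccl3 and Ccl4 are thus transcribed away from each other, with 13228 bases between them.

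Coding sequences of related members were aligned to see how far reads of one gene could be taken for another (mm10 genome with the GENCODE M21 models). Between Ccl6 and Ccl9 the coding identity was 67.2%, with an identical run of 23 bases. Among the Ccr2 ligand genes it was 61.9% for Ccl2 with Ccl7, 60% for Ccl2 with Ccl12 and 65.3% for Ccl7 with Ccl12. No 31-base stretch of the transcripts of Ccl2, Ccl3, Ccl7, Ccl12 or Cxcl16 occurred in a transcript of another gene. For Ccl9 3.75%, for Ccl6 1.02% and for Ccrl2 0.231% of such stretches did, none of them coding and none in another of the 9 genes.

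Most of the 9 genes were found almost wholly in microglia-like cells. Among the 10 named classes, 7 of the 9 had their highest level there in both libraries, the rare Ccl7 among them, and the exceptions were Ccrl2 and Cxcl16. With the libraries pooled, 11.0% of 14028 genes with at least 50 UMIs over all cells were highest there. Of the 8 members that reached 50 UMIs over all cells, 7 were at least 10 times as high in microglia-like cells as in the other named classes together, all but Ccrl2, against 4.25% of the 14028 genes. Microglia-like cells held 90.7% of all Ccl4 UMIs in Mr1+/+ and 99.6% in Mr1-/- cells. For Ccl3 the shares were 93.6% and 98.2%, for Ccl6 94.0% and 97.8%, and for Ccl9 96.8% and 97.3%. For Ccl2 they were 96.0% and 96.6%, and for Ccl12 97.3% and 99.2%. In the 9 other named classes together, Ccl4 had 1 UMI in Mr1+/+ and 2 in Mr1-/- cells. Oligodendrocyte-like cells, which should lack these genes and had medians of 4475 and 4194 UMIs, held at most 1 UMI of any of the 9 genes in 1340 Mr1+/+ cells and in 947 Mr1-/- cells. The shares of microglia-like cells with a UMI given below are therefore to be read against a background of 1 cell or none in that class.

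**Figure D1:**
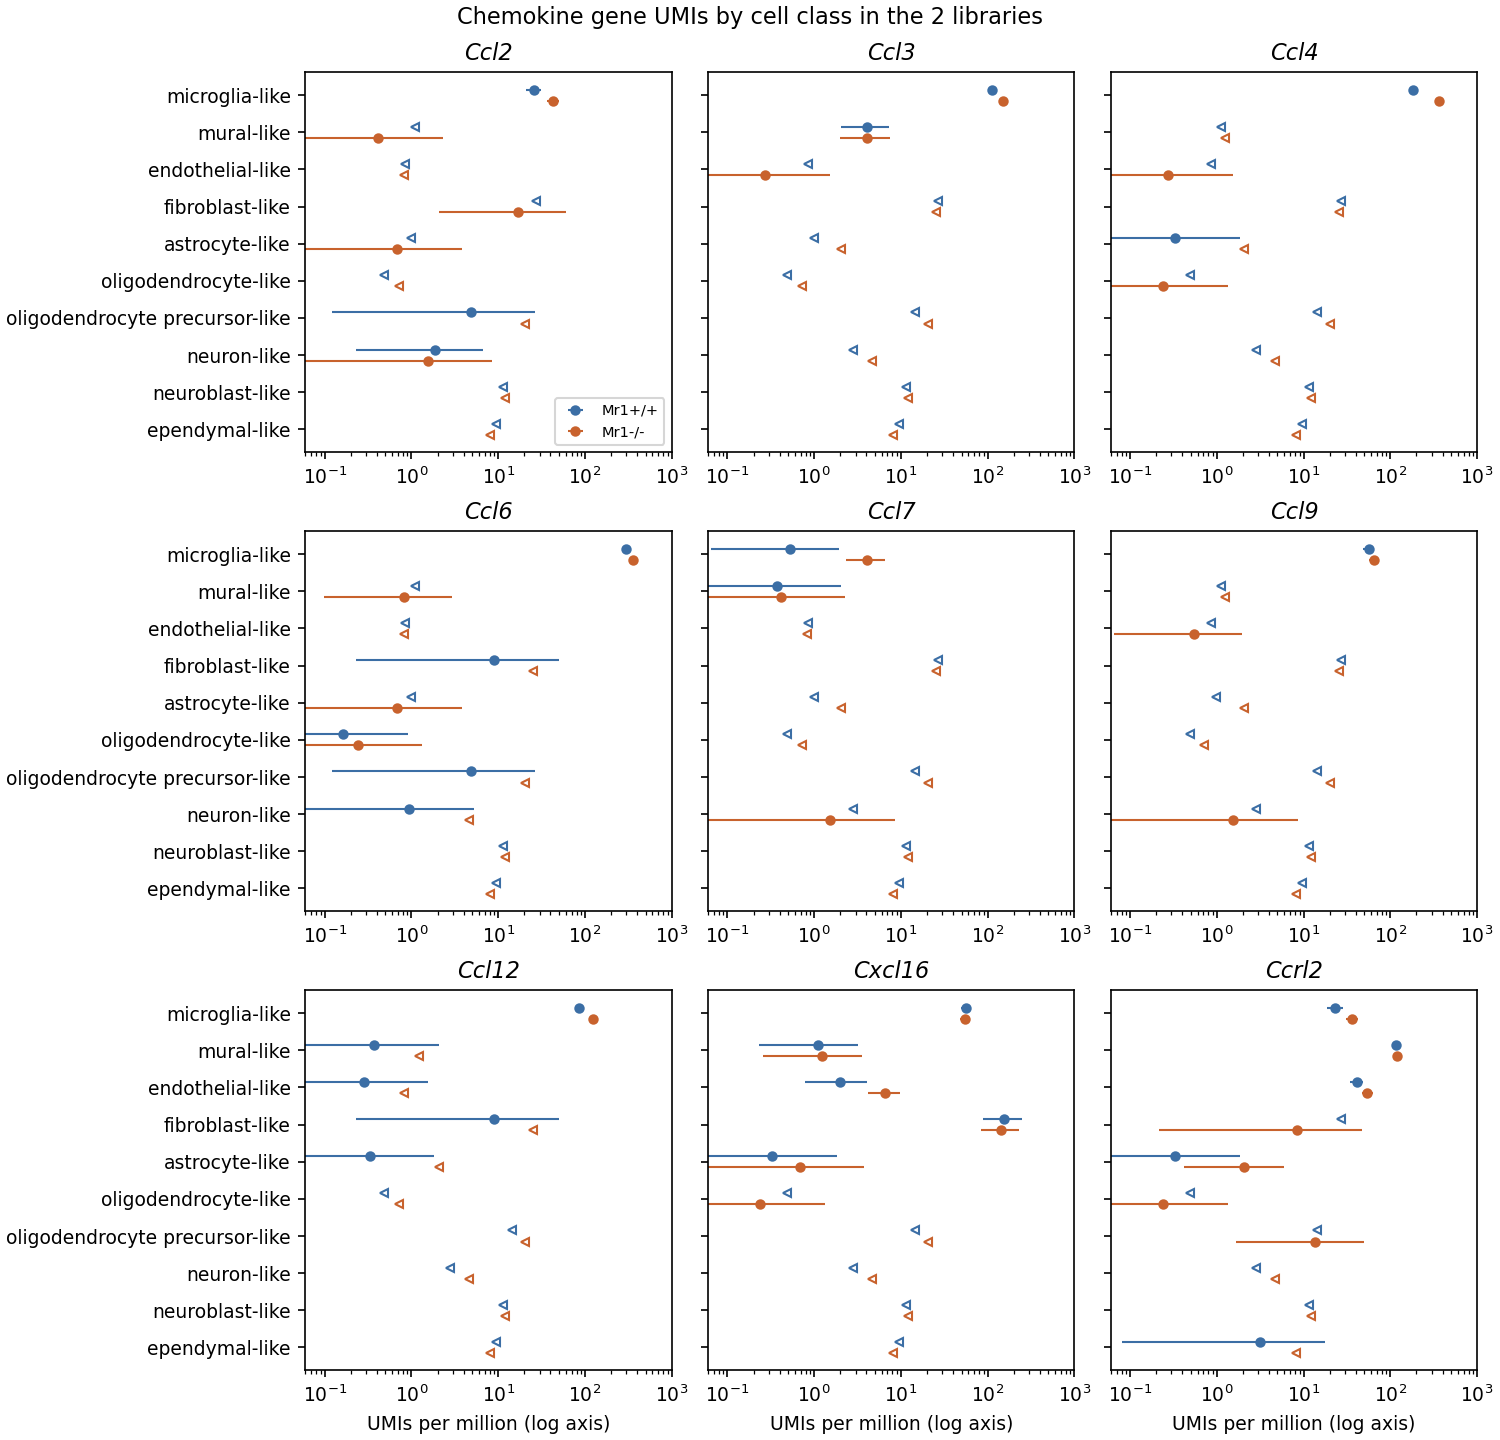
CPM (log axis) of each of the 9 genes in 10 named cell classes of the Mr1+/+ (blue) and Mr1-/- (orange) libraries. Points are levels with exact 95% Poisson intervals that cover counting error only, and open triangles mark the limit of 3 UMIs where no UMI was found. Ccl2, Ccl3, Ccl4, Ccl6, Ccl9 and Ccl12 stand high in microglia-like cells alone, whereas Ccrl2 is highest in mural-like cells and Cxcl16 also reaches 154 and 144 CPM in the few fibroblast-like cells.

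Ccrl2 was chiefly a gene of vessel cells. Only 15.8% of its UMIs in Mr1+/+ and 22.3% in Mr1-/- cells came from microglia-like cells. Mural-like cells, the smooth muscle cells and pericytes of the vessel wall, held 315 and 290 Ccrl2 UMIs, which is 116 and 119 CPM. In that class 25.1% of Mr1+/+ cells (binomial interval 22.4 to 27.9) and 24.1% of Mr1-/- cells (21.4 to 26.9) had at least 1 Ccrl2 UMI, at medians of 2446 and 2196 UMIs. Endothelial-like cells held 145 and 199 Ccrl2 UMIs, or 40.9 and 54.2 CPM, in 9.41% and 11.6% of cells. Within the vessel wall, the Ccrl2 level was 137 and 122 CPM in cluster 7, which was led by the smooth muscle genes Tagln, Acta2 and Myh11. It was 64.9 and 98.7 in cluster 3, led by the pericyte genes Kcnj8, Vtn and Abcc9, and 166 and 184 in cluster 12, led by Ccl19 and Steap4. Among endothelial-like clusters, cluster 19, led by Plvap, a protein of fenestrated and leaky endothelium, had 110 and 117 Ccrl2 CPM, against 33.1 to 50.2 in the Mr1+/+ and 32.5 to 64.5 in the Mr1-/- library for clusters 0, 6 and 8. RNA set free from one kind of cell keeps its genes in the same ratio wherever it is captured, so 8 abundant microglial genes such as C1qa and C1qb served as tracers. Set against them, Ccrl2 in mural-like cells was 2670 and 2538 times the count that the microglia-like ratio of Ccrl2 to tracers would give, and in endothelial-like cells 1193 and 1087 times.

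Cxcl16 had 86.5% and 81.8% of its UMIs in microglia-like cells. The fibroblast-like class, led by Dcn and Lum, held 17 Cxcl16 UMIs in each library, in 10 of 29 Mr1+/+ cells and in 14 of 32 Mr1-/- cells, and gave 154 and 144 CPM. In microglia-like cells Cxcl16 was at 56.1 and 54.6 CPM. Endothelial-like cells had 7 Cxcl16 UMIs in 1434 Mr1+/+ cells and 24 in 1558 Mr1-/- cells, which was 3.31 times as high in CPM in the Mr1-/- library (interval 1.38 to 9.10). Cxcr6, the receptor for Cxcl16, had no UMI in microglia-like cells of either library and 1 in all cells.

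Ccl3 was also seen at a low level in mural-like cells. It had 11 UMIs in 965 Mr1+/+ cells and 10 UMIs in 971 Mr1-/- cells, with 1 UMI in each positive cell. These cells lay in cluster 3 for all 11 of the Mr1+/+ library, and in cluster 3 for 7 and cluster 12 for 3 of the Mr1-/- library, with none in the smooth muscle cluster 7. They held no Ccl4 UMI and only 3 and 1 tracer UMIs. Against the tracers, Ccl3 was 19.3 times (interval 9.55 to 34.8) and 20.8 times (9.92 to 38.5) what the microglia-like ratio would give. Ccl3 in mural-like cells, Ccrl2 in mural-like cells and Ccrl2 in endothelial-like cells were the combinations above the tracer ratio in both libraries among classes of at least 50 cells with at least 10 UMIs of the gene in each library. Cxcl16 in endothelial-like cells missed this limit, with 7 UMIs in the Mr1+/+ library. It was at 23.6 times (9.39 to 49.6) and 86.8 times (54.4 to 133) the tracer ratio.

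In summed UMIs of microglia-like cells, Ccl4 had the highest ratio between the genotypes of the 8 members measured. With each cell weighing the same, Ccl2 (1.92) and Ccl12 (1.90) were above Ccl4 (1.76), so the order of the members depends on the weighting. Of the 8 genes with at least 50 UMIs, Ccl4, Ccl2 and Ccrl2 were at least 1.5 times as high in CPM in the Mr1-/- library, where 1.57% of 8828 such genes reached that ratio and 3.76% were past it in either direction. No member reached the same ratio in the other direction, as 2.19% of all genes did, and 7 of 8 were above 1, against 43.3% of all genes. The median log2 ratio of the 8 was 0.50 and that of all 8828 genes was -0.03. With called doublets kept, Ccl4 was at 1.73, Ccrl2 at 1.42 and Ccl2 at 1.31, so that Ccl4 alone was past 1.5-fold. These are counts over a short list in 1 pair of libraries, and the members share chromosomal neighbourhoods and cells, so they are not independent.

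Of the Ccl3 and Ccl4 pair, Ccl4 had 691 UMIs in Mr1+/+ (Poisson interval 640 to 744) and 1457 in Mr1-/- cells (1383 to 1534), which is 183 and 368 CPM. The ratio was 2.02 (interval 1.84 to 2.21), the 16th highest of 8828 genes. At least 1 Ccl4 UMI was found in 140 Mr1+/+ cells (21.9%, binomial interval 18.8 to 25.3) and 219 Mr1-/- cells (29.4%, 26.1 to 32.8), and the mean in those cells was 4.94 and 6.65 UMIs. Both the share of positive cells and the amount in them were thus higher in the Mr1-/- library. Cells with 10 or more Ccl4 UMIs numbered 21 and 36 and held 335 and 861 UMIs, which is 48.5% and 59.1% of the total. The highest single cell had 32 UMIs in Mr1+/+ and 73 in Mr1-/- cells, where 7 cells had 40 or more. Without the 5 highest cells of each library the ratio was 1.97.

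Ccl3 differed less. It had 421 UMIs in Mr1+/+ and 602 in Mr1-/- cells, or 111 and 152 CPM, a ratio of 1.37 (1.21 to 1.55). Its share of positive cells was 26.8% (23.4 to 30.4) and 28% (24.8 to 31.4), with Mr1-/- cells the shallower. In cells thinned to 1500 UMIs, as described below, the shares were 12.1% and 16.4%. Cells with 10 or more Ccl3 UMIs numbered 3 and 8.

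**Figure D2:**
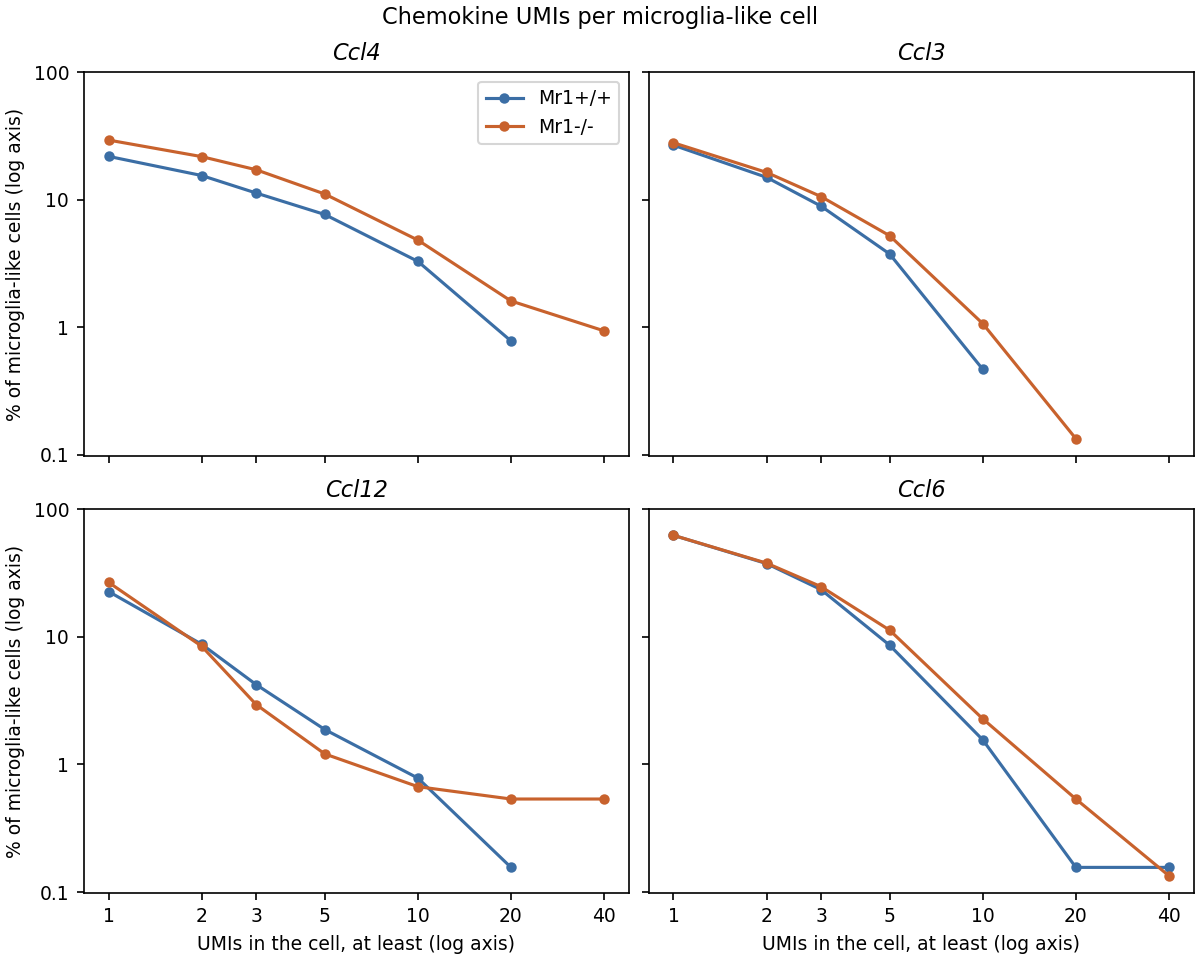
Percentage of microglia-like cells (log axis) with at least the number of UMIs on the x axis (log axis) for Ccl4, Ccl3, Ccl12 and Ccl6 in the Mr1+/+ (blue) and Mr1-/- (orange) libraries. The Ccl4 line of the Mr1-/- library lies above the other at every number of UMIs, while the Ccl12 lines cross, with 4 Mr1-/- cells and no Mr1+/+ cell at 40 or more.

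Of the members, Ccl6 was found in the most microglia-like cells. It had 1111 and 1403 UMIs, or 294 and 355 CPM, with a ratio of 1.21 (1.12 to 1.31). The share of positive cells was 62.6% in both libraries. Ccl9 had 212 and 253 UMIs, or 56.1 and 64.0 CPM, in 23.3% and 23.7% of cells. Its ratio of 1.14 had a counting interval of 0.947 to 1.38, which holds 1. With each cell weighing the same it was 1.24. In 1 draw of cells thinned to equal depth it was 1.86 (1.24 to 2.83), with 36 and 79 UMIs left. There 5.48% and 9.41% of cells were positive.

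Among the Ccr2 ligands, Ccl2 had 97 and 170 UMIs, or 25.6 and 43.0 CPM, a ratio of 1.68 (1.30 to 2.17). It was found in 45 Mr1+/+ cells (7.04%) and 69 Mr1-/- cells (9.25%), and its highest cells had 11 and 17 UMIs. Ccl12 had 322 and 493 UMIs, or 85.1 and 125 CPM, a ratio of 1.46 (1.27 to 1.69), in 22.7% and 26.8% of cells. Its difference rested on few cells: 27 Mr1+/+ cells (4.23%) and 22 Mr1-/- cells (2.95%) had 3 or more UMIs, and the ratio without the 5 highest cells of each library was 1.14. Ccl7 had 2 UMIs in 2 Mr1+/+ cells and 16 in 6 Mr1-/- cells, and 9 of the 16 came from 1 cell with 3 or more border macrophage markers. It was left out of the ratios for its low count.

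Cxcl16 had 212 and 216 UMIs in microglia-like cells, in 25.7% and 23.3% of them, with a ratio of 0.974 (0.802 to 1.18). Ccrl2 had 87 and 143 UMIs, or 23.0 and 36.2 CPM, in 11.1% and 13.7% of cells, a ratio of 1.57 (1.20 to 2.08). The mural-like share of 25.1% and 24.1% was higher than either at a lower depth.

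**Figure D3:**
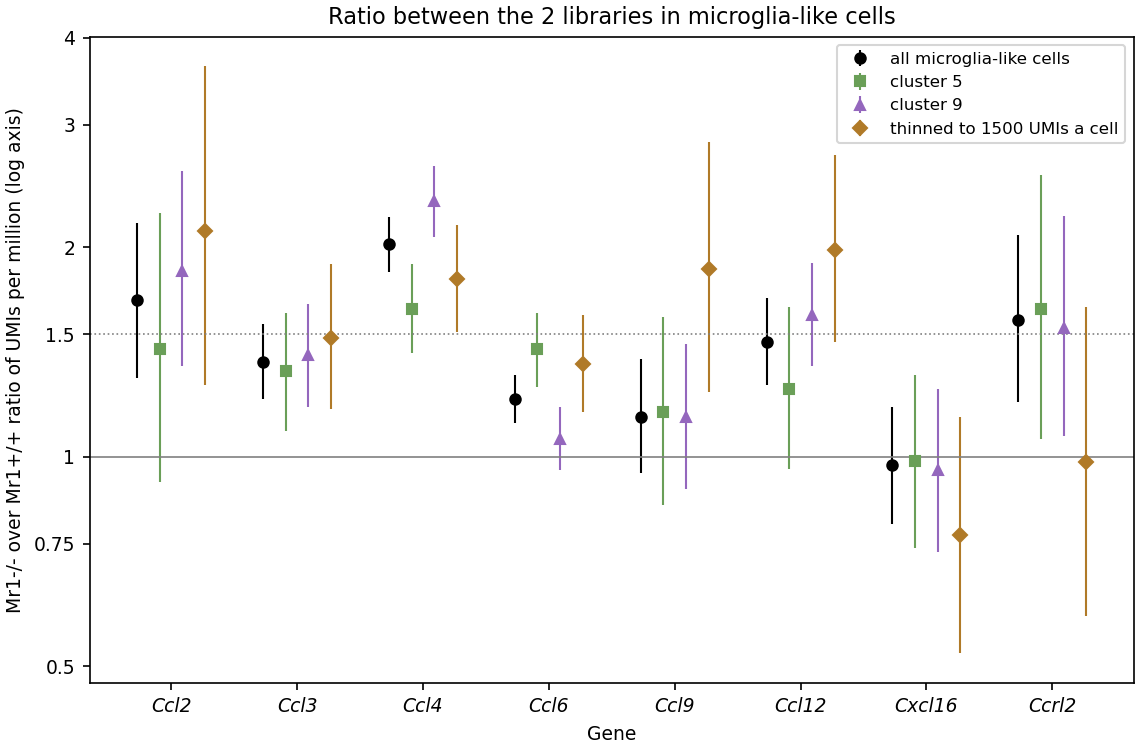
Ratio of CPM, Mr1-/- over Mr1+/+ (log axis), for 8 genes in all microglia-like cells (black), in clusters 5 and 9 of that class (green and purple) and in cells thinned to 1500 UMIs (brown). Bars are 95% counting intervals, the solid line marks equality and the dotted line a ratio of 1.5. Ccl4 lies above 1.5 in all 4 sets, from 1.63 to 2.33, and Ccrl2 moves from 1.57 to 0.982 on thinning.

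The Mr1-/- cells were shallower, so each cell was also thinned at random to 1500 UMIs, which kept 620 Mr1+/+ and 733 Mr1-/- cells and left out 19 and 13 shallower ones. The Ccl4 ratio was then 1.80 (1.51 to 2.15), and the share of cells with a Ccl4 UMI was 13.1% and 18.7%. Ccl2 had a ratio of 2.11 (1.27 to 3.64), Ccl12 of 1.98 (1.46 to 2.71), Ccl3 of 1.48 (1.17 to 1.89) and Ccl6 of 1.36 (1.16 to 1.60). Thinning gives every cell the same weight and leaves fewer UMIs, and the intervals were wider. Cxcl16 was at 0.773 (0.522 to 1.14). Ccrl2, with 31 and 36 UMIs left, was at 0.982 (0.591 to 1.64), an interval that holds the 1.57 seen before thinning. With each cell weighing the same and no thinning, Ccrl2 was at 1.56. This 1 draw with few UMIs does not settle the Ccrl2 ratio at equal depth.

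The microglia-like class was made of 2 clusters, and the Ccl4 difference was present in each. Cluster 5 held 416 and 499 cells with medians of 3517 and 3250 UMIs, and gave a Ccl4 ratio of 1.63 (1.41 to 1.89). The deeper cluster 9 held 223 and 247 cells with medians of 8618 and 8421 UMIs, and gave 2.33 (2.07 to 2.62). Ccl6 had ratios of 1.43 in cluster 5 and 1.06 in cluster 9. In thinned cells its levels were 265 and 361 CPM in cluster 5 and 287 and 394 CPM in cluster 9, so the contrast was not found at equal depth. Leaving out the cells with 3 or more border macrophage markers, Ccl4 was at 181 CPM in Mr1+/+ and 360 in Mr1-/- cells.

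At a finer resolution, again without chemokine genes, 4 clusters could be named microglia-like, and they are given as descriptions. They held 575 Mr1+/+ and 680 Mr1-/- cells. A further cluster of 155 and 106 cells, with medians of 1290 and 2086 UMIs, had all 12 microglia markers but was led by S100a9 and S100a8 and stayed unnamed. Cluster numbers of this finer set are its own. Finer cluster 6, led by Tmem119, Fcrls and Gpr34, held 255 and 279 cells, and finer cluster 12, led by Cx3cr1 and Selplg, held 220 and 242. Finer cluster 20 held 93 and 149 cells. Its leading genes were Fos, a gene switched on within minutes of a stimulus, the stress gene Hspa1a, Rgs1, the antigen presentation gene Cd74, and Ccl3 and Ccl4. Finer cluster 34 held 7 and 10 cells and was led by Ccl12 with Ifit3, Mx1 and Phf11b, of which Ifit3 and Mx1 are interferon-induced genes. Ccl4 was also among its leading genes.

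The Ccl4 difference between the libraries was unequal over these clusters. In finer cluster 6 the Ccl4 level was 148 CPM in Mr1+/+ and 171 in Mr1-/- cells, a ratio of 1.15 whose interval of 0.928 to 1.43 holds 1. In finer cluster 12 it was 180 and 377, a ratio of 2.09 (1.85 to 2.37). In the Fos-led cluster 20 it was 303 and 770, a ratio of 2.54 (2.03 to 3.22), and in the small cluster 34 it was 256 and 1492, a ratio of 5.84 (3.42 to 10.5). The cluster 34 value rests on 17 and 76 UMIs in 7 and 10 cells, with medians of 8731 and 3620 UMIs per cell. The differences between these ratios were not tested. Ccl3 followed the same order in the 3 larger clusters, with ratios of 1.0, 1.29 and 1.68 (1.27 to 2.24 in cluster 20). In cluster 34 Ccl3 had 7 and 22 UMIs, a ratio of 4.1 (1.69 to 11.4). The Fos-led cluster held 14.5% of the Ccl4 UMIs of the 4 clusters in Mr1+/+ and 25.1% in Mr1-/- cells, for 16.2% and 21.9% of the cells. For Ccl3 these shares were 17.7% and 29.9%. Ccrl2 in this cluster had 8 and 34 UMIs, a ratio of 2.88 (1.31 to 7.21).

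Ccl12 was highest in finer cluster 34 in both libraries. Ccl4 and Ccl3 were also highest there in the Mr1-/- library, at 1492 and 432 CPM against 770 and 380 in the Fos-led cluster. In the Mr1+/+ library they were highest in the Fos-led cluster, at 303 and 227 CPM against 256 and 105 in cluster 34. In finer clusters 6, 12 and 20 Ccl12 stood between 63.0 and 73.2 CPM in Mr1+/+ and between 68.9 and 109 in Mr1-/- cells. In finer cluster 34 it reached 1007 and 2356 CPM, a ratio of 2.34 (1.72 to 3.20). These 7 and 10 cells, 1.22% and 1.47% of the cells of the 4 clusters, held 67 of their 314 and 120 of their 469 Ccl12 UMIs, or 21.3% and 25.6%. Without them the Ccl12 ratio was 1.35. Ccl6 was even over the 4 clusters, between 226 and 314 CPM in Mr1+/+ and between 275 and 391 in Mr1-/- cells.

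**Figure D4:**
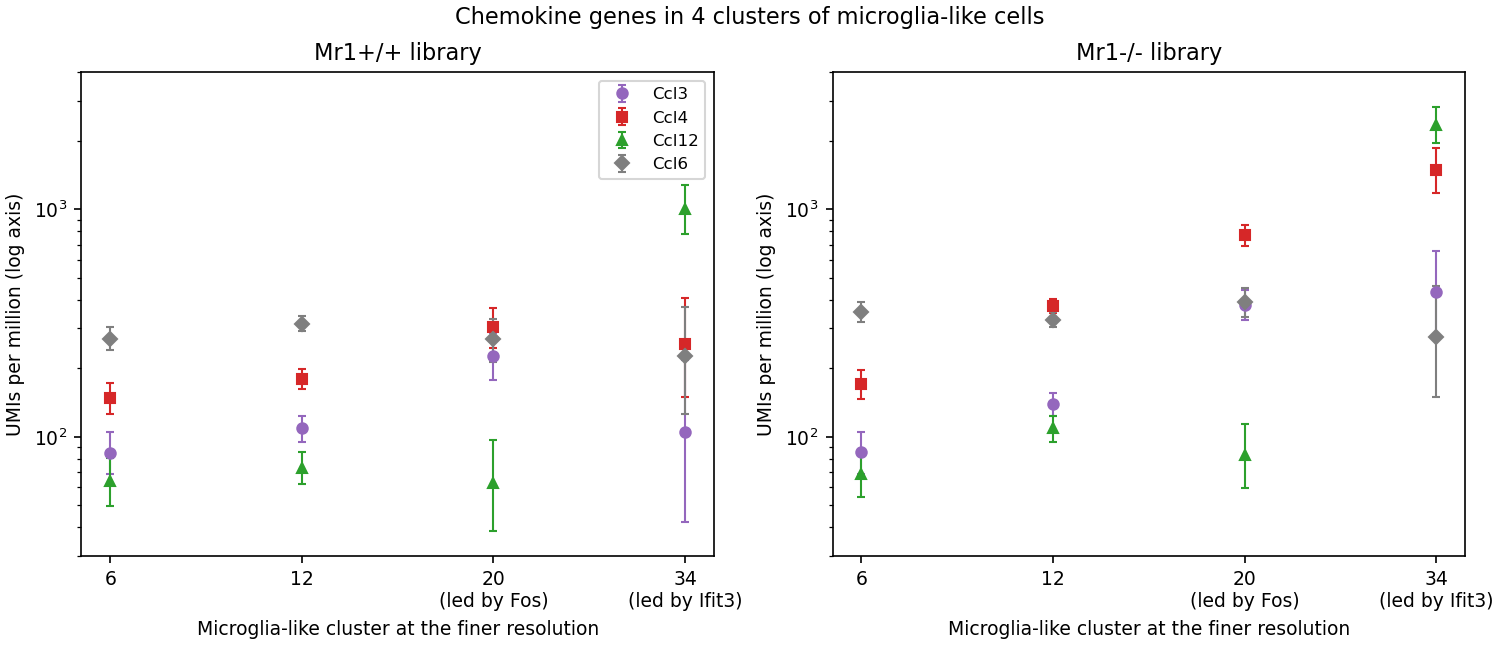
CPM (log axis) of Ccl3, Ccl4, Ccl12 and Ccl6 in the 4 finer microglia-like clusters of each library, with exact 95% Poisson intervals that cover counting error only. Ccl4 and Ccl3 stand higher in the Fos-led cluster 20 than in clusters 6 and 12, while Ccl12 is near 1007 and 2356 CPM in the 7 and 10 cells of cluster 34 and below 110 elsewhere. In the Mr1-/- library Ccl4 and Ccl3 are higher still in cluster 34, at 1492 and 432 CPM.

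One shallow cluster outside the named class went against the Ccl4 difference. Cluster 15 was left unnamed because 3 of its leading genes were neutrophil markers and none was a microglia marker. Its cells were shallow, with medians of 899 and 1028 UMIs. Of its 91 Mr1+/+ cells 90, and of its 40 Mr1-/- cells 39, nevertheless held UMIs of 3 or more microglia markers. Its leading gene S100a9 came from 269 UMIs of 1 Mr1-/- cell, the only cell of the cluster with 3 or more neutrophil markers. Ccl4 had 70 UMIs in 19 of the Mr1+/+ cells (760 CPM) and 4 UMIs in 1 of the Mr1-/- cells (88.4 CPM), a ratio of 0.116 (0.0308 to 0.311). Ccl3 had 18 UMIs in 8 Mr1+/+ cells and none in the 40 Mr1-/- cells, where 3 counts would be 7.5% of cells with a UMI or 66.3 CPM. At a median of 1028 UMIs a cell, this limits detection and not the share of expressing cells. Ccl6 had 66 and 28 UMIs, a ratio of 0.864 (0.534 to 1.36). With this cluster added to the microglia-like class the Ccl4 ratio was 1.86.

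Within single microglia-like cells, Ccl3 and Ccl4 were found together far more often than independent detection gives. Both were found in 78 Mr1+/+ cells, where the product of their shares gives 37.5, and in 114 Mr1-/- cells, where it gives 61.4. Of Ccl3-positive cells 45.6% (38.0 to 53.4) and 54.5% (47.5 to 61.4) held Ccl4, against 21.9% and 29.4% of all cells. Deep cells favour joint detection of any pair, so the count was repeated in cells thinned to 1500 UMIs. There 27 Mr1+/+ cells held both, against 9.80 for independent detection (2.76 times), and 44 Mr1-/- cells against 22.4 (1.96 times). Of 4049 genes compared in the thinned cells, 0.247% were found with Ccl4 at least 1.5 times as often as independent detection gives in both libraries, and Ccl3 ranked 2 by the lower of its 2 values. For Ccl3 as the anchor the background was 0.445%, and Ccl4 ranked 1.

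The link was graded. Ccl3 was found in 18.6% of the 499 Mr1+/+ cells without a Ccl4 UMI, in 34.1% of the 41 with 1, in 61.5% of the 78 with 2 to 9 and in 76.2% of the 21 with 10 or more. In the Mr1-/- library the shares were 18.0% of 527, 41.1% of 56, 48.8% of 127 and 80.6% of 36. Median depth also differed over these groups, from 4026 to 7139 and from 3564 to 7180 UMIs, with the lowest in the cells without Ccl4. In CPM, which takes out depth, Ccl3 went from 65.9 to 321 between the end groups of the Mr1+/+ library and from 96.2 to 544 in the Mr1-/- library. Ccl12 was found in 19.4%, 26.8%, 38.5% and 33.3% of cells over the same groups of the Mr1+/+ library and in 24.1%, 37.5%, 30.7% and 36.1% in the Mr1-/- library. In CPM, Ccl12 was at 63.6, 144, 135 and 99.9 in the Mr1+/+ groups and at 81.2, 223, 120 and 378 in the Mr1-/- groups, so it was lowest in cells without Ccl4 but had no steady order over the rest.

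Of the 36 pairs of members, 7 were found together at least 1.5 times as often as independent detection gives in both libraries before thinning and 4 after it, and 3 pairs were in both sets. These 3 were Ccl3 with Ccl4, Ccl2 with Ccl3 and Ccl3 with Ccrl2. Before thinning no share over all genes was taken, so the 7 have no background beside them. Among the 7, Ccl7 with Ccl4 and Ccl7 with Ccl12 rested on 2 Mr1+/+ cells each. Thinned cells with both Ccl2 and Ccl3 numbered 4 in the Mr1+/+ library, against 1.94, and 12 in the Mr1-/- library, against 5.57. Cells with both Ccl3 and Ccrl2 numbered 6, against 3.27, and 9, against 4.91. The counts of these pairs were small. Of genes compared with Ccl2 as the anchor, 2.49% passed the same rule, and with Ccl12 as the anchor 0.840%. Ccl6, the most widely found member, was found with Ccl4 0.797 and 0.875 times as often as independent detection gives in thinned cells.

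**Figure D5:**
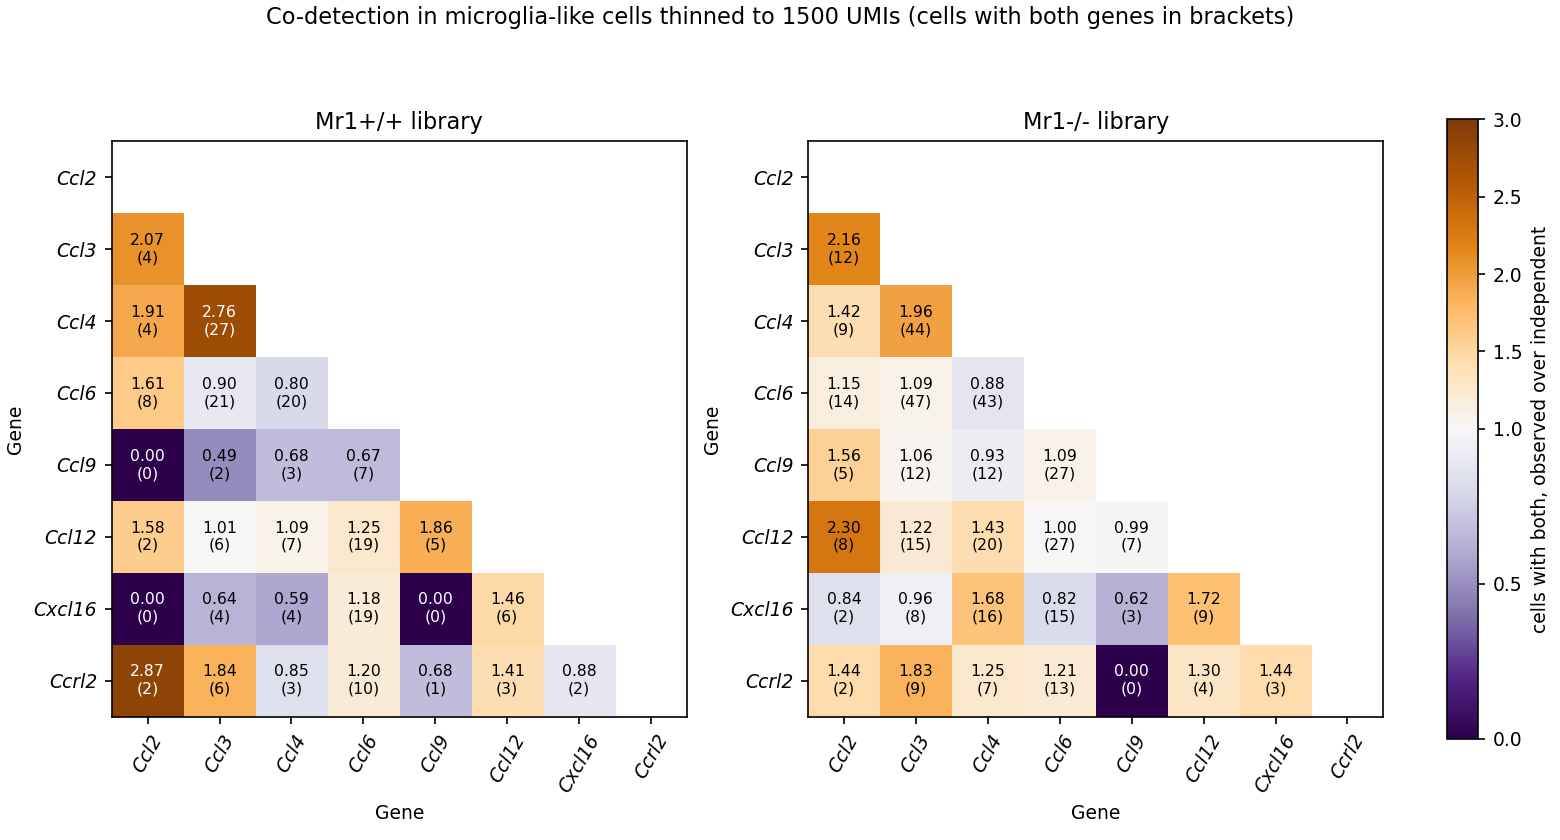
Cells with both genes, observed over the number that independent detection gives, for pairs of 8 members in thinned microglia-like cells of each library, with the number of cells in brackets. The colour is white at 1, orange above and purple below. Ccl3 with Ccl4 stands at 2.76 (27 cells) and 1.96 (44 cells), and most other pairs rest on fewer than 20 cells.

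Thinned cells with at least 1 of the 9 genes made up 59.0% of the Mr1+/+ and 67.7% of the Mr1-/- library. Those with at least 2 made up 20.8% and 27.3%, and those with at least 3 made up 4.35% and 8.73%. Before thinning, 33.0% and 37.5% of cells held at least 3, and 15.6% and 14.1% held none.

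The genes most like each member were taken by Pearson correlation over single microglia-like cells (639 and 746 cells, 7762 genes compared). Cells of a library share its depth and preparation, so these values are descriptions. Ccl4 was most like Ccl3, with r = 0.35 in Mr1+/+ and 0.37 in Mr1-/- cells. Next came 4 immediate early genes, which respond quickly to stimulation: Ier2 (0.20 and 0.17), Atf3 (0.17 and 0.20), Zfp36 (0.15 and 0.22) and Klf2 (0.13 and 0.24). Ccl12 was most like Isg15, an interferon-induced gene (0.26 and 0.29), then Ifitm3 (0.18 and 0.24) and Ly6a (0.15 and 0.15). Ccl2 was most like Nfkbid, Egr1 and Zfp36, with r between 0.10 and 0.17, values too low to read further in sparse counts.

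Most immediate early genes were also higher in the Mr1-/- library. Of 22 listed genes 19 had at least 50 UMIs in microglia-like cells, 17 had more CPM in Mr1-/- cells and 2 had less, and 4 were at least 1.5 times as high. Over all 8828 genes 43.3% were above 1 and 1.57% reached 1.5-fold. The median log2 ratio of the list was 0.26. These 4 were Fosb at 2.02 times, Egr1 at 1.96, Atf3 at 1.66 and Fos at 1.60, the last with 162 and 258 CPM. Jun, Jund, Junb and Zfp36, which had more UMIs, were at 1.25, 1.20, 1.18 and 1.26, and Klf4 and Klf6 were at 0.986 and 0.968. In thinned cells the list made up 0.576% of UMIs in Ccl4-positive and 0.443% in Ccl4-negative Mr1+/+ cells, and 0.782% and 0.533% in Mr1-/- cells. The standard deviations over these cells were 0.44 and 0.339 in Mr1+/+ and 0.511 and 0.424 in Mr1-/- cells, wider than the gaps. The part of these genes in the Ccl4 difference was not tested. Of 18 measured NF-kB and cytokine genes, a family that the transcription factor NF-kB switches on in inflammation, 12 were higher and 6 lower, with a median log2 ratio of 0.12. Nfkbiz alone, 1 of the 18, was past 1.5-fold, at 1.89 (1.27 to 2.85). Tnf was at 1.39 (1.01 to 1.92), Il6 at 0.700 (0.493 to 0.988) and Nfkbia at 0.859 (0.771 to 0.956).

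Other ligands were scarce in microglia-like cells. Of 13 further CC chemokine genes 3 had at least 50 UMIs, 1 of them higher and 2 lower in Mr1-/- cells. Ccl5 had 33 and 18 UMIs (0.522, interval 0.276 to 0.954), in only 8 and 6 cells. Ccl24 had 40 and 40 UMIs, and Ccl25 had 21 and 32. Of the CXC, CX3C and XC ligand genes Pf4, a gene of border macrophages and platelets, had 83 and 68 UMIs (0.783, 0.560 to 1.09). Cxcl12, with 16035 UMIs over all cells, had 52 and 11 in 6 and 7 microglia-like cells. A further pair of genes below 50 UMIs were singled out after their values were seen. Cxcl10 had 0 and 19 UMIs, the 19 in 4 cells with up to 9 in 1 cell. Cxcl13 had 25 and 0, the 25 in 3 cells with up to 20 in 1 cell.

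Receptors of the same families were also measured in microglia-like cells. Ccr1 had 23 and 48 UMIs, a ratio of 2.0 (1.19 to 3.44). Ccr2 had 9 and 4 UMIs. Cx3cr1, the fractalkine receptor that marks microglia, was at 4181 and 4149 CPM. Cmklr1, the signalling receptor for chemerin, was at 115 and 105 CPM, and the chemerin gene Rarres2 had 4 UMIs in microglia-like cells of each library. The proteases Adam10 (145 and 141 CPM) and Adam17 (84.9 and 91.3) differed by ratios of 0.970 and 1.08, whose intervals of 0.861 to 1.09 and 0.923 to 1.25 hold 1.

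Promoter windows of 250 bases before the start were read from RefSeq (GRCm38.p6) for the 5 members with an entry: Ccl3, Ccl6, Ccl9, Ccl12 and Ccrl2. Both strands were searched for the NF-kB motif, the AP-1 motif TGANTCA, the interferon response motif (GAAA, any 2 bases, GAAA) and the PU.1 motif GAGGAA, PU.1 being a transcription factor of the macrophage lineage. Of 32851 promoter windows of this length, 7.25%, 6.75%, 2.98% and 23.3% held them. The windows of Ccl3, Ccl12 and Ccl9 are shown because Ccl3 was high in the Fos-led cluster, Ccl12 was high in finer cluster 34, and the Ccl9 window held matches to 2 of the motifs. Capitals mark the matches. The Ccl3 window is chr11:83649379-83649628 on the minus strand, that of Ccl12 is chr11:82101595-82101844 on the plus strand, and that of Ccl9 is chr11:83578637-83578886 on the minus strand.
Ccl3: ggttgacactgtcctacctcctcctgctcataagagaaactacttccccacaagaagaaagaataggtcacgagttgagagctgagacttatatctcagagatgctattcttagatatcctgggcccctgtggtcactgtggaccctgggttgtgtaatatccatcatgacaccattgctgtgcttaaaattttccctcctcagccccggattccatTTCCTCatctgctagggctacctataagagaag
Ccl12: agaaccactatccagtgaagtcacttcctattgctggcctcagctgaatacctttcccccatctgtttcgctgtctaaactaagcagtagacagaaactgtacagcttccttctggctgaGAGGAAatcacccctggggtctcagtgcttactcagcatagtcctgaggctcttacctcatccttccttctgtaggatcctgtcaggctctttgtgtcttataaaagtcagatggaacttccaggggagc
Ccl9: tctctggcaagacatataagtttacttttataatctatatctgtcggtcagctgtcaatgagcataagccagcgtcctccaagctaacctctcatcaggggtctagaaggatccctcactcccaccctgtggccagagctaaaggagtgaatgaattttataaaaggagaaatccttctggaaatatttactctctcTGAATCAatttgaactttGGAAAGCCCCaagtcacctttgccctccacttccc
Ccl3 held 1 match to the PU.1 motif on the opposite strand, 33 to 28 bases before the start, and Ccl12 held 1 on its own strand, 130 to 125 bases before it. Ccl9 held an AP-1 match 53 to 47 bases and an NF-kB match 35 to 26 bases before the start. Ccrl2 held an NF-kB match at 1 of its 3 starts, 56 to 47 bases before it, and Ccl6 held none of the 4 motifs in this window. These matches are descriptions of the letters only.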

How the data were processed

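The deposited matrices hold whole UMI counts per gene and cell barcode of 1 droplet library per genotype, per the labels. The submitters' processing notes name Cell Ranger 5.1.0, STAR and mm10, while the matrix header names Cell Ranger 3.1.0. The 9 genes and all gene lists were chosen with earlier results of these data known.

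Barcodes with at least 300 genes and at most 10% mitochondrial UMIs were kept. Doublets were called in each library with scrublet in scanpy 1.11.5 (expected rate 0.05), and 335 (5.29%) and 171 (3.24%) were removed. Cells were clustered together (Leiden resolution 1.0, 2000 variable genes without chemokine genes, 30 components, 15 neighbours), with leidenalg 0.10.2. A cluster was named when at least 3 fixed markers were detected and its leading genes did not go against the name. A shallow cluster with no marker of its class among its leading genes stayed unnamed. Names therefore come from this re-clustering.

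UMIs were summed per class and library. Intervals are exact Poisson, binomial (Clopper-Pearson) or, for ratios, conditional binomial (SciPy 1.17.1), at 95%. They cover counting error only, and a count of 0 allows up to 3. Ratios were compared over genes with at least 50 UMIs over both libraries, and a ratio of 1.5 either way was counted. Thinning used 1 seeded draw of 1500 UMIs per cell. Sequences were aligned with Biopython 1.88. Some measured items are not reported here. The ratio and interval code was tested on simulated data.

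All 9 members are named. From other lists the genes with the most UMIs or the largest ratio each way are named, and for each member the genes with the highest correlation in both libraries. Alternatives changed the scaling, cell weights, thinning, mitochondrial limit, doublets, border macrophages, clustering and highest cells. Alternatives on single clusters and on doublets clustered anew were added after the data were seen.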

Additional observations from a re-analysis of the deposited data

Results flagged for a closer look

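The Ccl4 difference between the libraries ran in opposite directions in 2 groups of cells with microglia markers. In the microglia-like class the Mr1-/- over Mr1+/+ ratio was 2.02, and in the shallow unnamed cluster 15 it was 0.116 (70 UMIs in 91 Mr1+/+ cells, 4 UMIs in 40 Mr1-/- cells). With 1 library per genotype the difference between these ratios was not tested.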

How the results depend on the processing

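The number of members past 1.5-fold, 3 as reported, was 1 with called doublets kept, 1 with doublets kept and all cells clustered anew, and 5 without finer cluster 6. It was 4 in thinned cells, with each cell weighing the same and in cluster 9 alone, and 2 in cluster 5 alone and without finer cluster 20. In thinned cells these were Ccl2, Ccl4, Ccl9 and Ccl12. No share over all genes is given for these alternatives. The cause of these changes was not tested. With doublets kept, Ccl2 was at 1.31, Ccrl2 at 1.42 and Ccl4 at 1.73. The number of pairs found together at least 1.5 times as often as independent detection gives in both libraries was 4 after thinning and 12 when at least 2 UMIs were asked for, against 7 as reported. Ccrl2 turned to 0.982 on thinning, with 31 and 36 UMIs left, and was at 1.56 with each cell weighing the same. Over all alternatives the ratio ran from 1.63 to 2.36 for Ccl4, 1.31 to 2.11 for Ccl2, 1.25 to 1.56 for Ccl3, 1.06 to 1.43 for Ccl6, 1.10 to 1.86 for Ccl9, 1.14 to 1.98 for Ccl12, 0.773 to 0.996 for Cxcl16 and 0.982 to 1.84 for Ccrl2. The number of members highest in microglia-like cells was 7 under each alternative run for it. Another scaling moved every log2 ratio by 0.03. No paired analysis was possible because each genotype had 1 library. At this depth Ccl7 and pairs of the less abundant members rest on few UMIs.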

Other observations

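Genes that mark the resting and the disease-associated states of microglia were set beside the chemokine genes. All 14 listed homeostatic genes had at least 50 UMIs in microglia-like cells. Of these, 5 had more CPM in Mr1-/- cells and 9 had less, none reached 1.5-fold, and the median log2 ratio was -0.01. Over all 8828 genes 43.3% had more CPM in Mr1-/- cells, 3.76% were past 1.5-fold either way, and the median was -0.03. P2ry12, a receptor for nucleotides released at injury, was at 5159 and 4991 CPM, and Tmem119 was at 2768 and 2617. Of 11 measured disease-associated genes 7 were higher and 4 lower, with a median log2 ratio of 0.04, and 2 were at least 1.5 times as high, as were 1.57% of 8828 genes. Trem2, the lipid-sensing receptor of that state, had a ratio of 1.03 and Apoe of 0.953. These 2 were less abundant: Lpl had 41 and 66 UMIs, a ratio of 1.54 (1.03 to 2.33), and Lgals3 had 24 and 42 (1.67, 0.990 to 2.89). In thinned cells, homeostatic genes made up 4.42% of UMIs in Ccl4-positive and 4.50% in Ccl4-negative cells of the Mr1+/+ library, and 4.18% and 4.49% in the Mr1-/- library, with standard deviations over cells of 0.854 to 1.05.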
